A study of Mus musculus with 11 samples.

Results

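The HOX genes of the 4 mouse clusters were followed in cardiac progenitor cells and in the C2C12 myoblast line. The members were all array probes whose gene name is Hoxa, Hoxb, Hoxc or Hoxd followed only by a number: 50 probes for 38 genes, of 27567 genes on the array. The Hoxa cluster on chromosome 6 gave 11 genes, Hoxb on chromosome 11 gave 10, Hoxc on chromosome 15 gave 8 and Hoxd on chromosome 2 gave 9. Hoxc11 matched no probe and was not analysed here.

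HOX genes encode homeodomain transcription factors that specify position along the head-to-tail axis. Genes at the low-numbered end of a cluster are switched on first and reach furthest toward the head, and high-numbered genes come on later and nearer the tail or the limb tip. Polycomb proteins keep a cluster silent, trithorax proteins keep it active and retinoic acid induces the low-numbered genes. Cultured cells often hold the HOX pattern of the site they came from.

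The study compared cardiac progenitors of dystrophic and normal mice, with C2C12 as its reference for myogenic cells. KO samples were progenitors of mice null for beta-sarcoglycan, a protein of the muscle cell membrane, and WT samples were progenitors of wild-type mice; the series calls both mesoangioblasts, which are vessel-associated progenitors. Each genotype was sampled from ventricle, aorta and atrium. C2C12 is an established mouse myoblast line, and its labels give no genotype or heart region. Ages and the number of animals behind a sample were not given in the sources used here. Of the 11 arrays (5 KO, 3 WT and 3 C2C12), 3 pairs within a group differed by less than the noise of repeated spots and were counted as 1 sample each. This left 8 samples, 1 per region in KO and in WT and 2 of C2C12. Nothing states that they came from separate cultures, so p-values measure only the spread between these samples.

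Levels are given as log2 signal minus the 75th percentile of the array, so a level of 0 equals that percentile, which lay between 960.6 and 1145.5 intensity units. The share of probes well above background was 49 to 62%, by the scanner software's flag for a spot distinct from its surroundings. Sgcb, the gene named in the KO labels, had a level of 2.99, 2.34 and 2.64 in KO ventricle, aorta and atrium and of 2.2, 1.82 and 2.07 in WT ventricle, aorta and atrium. It was therefore not lower in the samples labelled KO (difference 0.63, SE 0.21, limma adjusted p = 0.0709), and whether this probe lies in the deleted part is not given in the sources used here. KO and WT below mean the samples labelled so, and every direction rests on those labels. Of 10 skeletal muscle markers, 10 were above background in KO and 5 in WT; their summed linear signal, in units of the 75th percentile, ran from 50.3 to 188 in KO, 0.544 to 2.7 in WT and 109 to 268 in C2C12. Of 6 endothelial markers, 0 were above background in KO or WT. The part of these cell type markers in the HOX differences was not tested. All WT arrays lay on 1 slide and all KO arrays on 2 others, with C2C12 on each slide, so slide and genotype are linked only through C2C12.

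Upstream sequences are shown for 4 genes on which the results turn, Hoxa2 and Hoxd4 with high signal in WT and Hoxa9 and Hoxa11 with high signal in KO and C2C12. They are the 250 bases before the start in the direction of the gene, from RefSeq on build GRCm38.p6: Hoxa2 at chr6:52164832-52165081 (minus strand), Hoxd4 at chr2:74721728-74721977 (plus strand), Hoxa9 at chr6:52227371-52227620 (minus strand) and Hoxa11 at chr6:52245811-52246060 (minus strand). Capitals mark matches, on either strand, to TGATNNAT, the joint HOX and PBX motif, and to TGACAG, the MEIS and PREP motif.
Hoxa2: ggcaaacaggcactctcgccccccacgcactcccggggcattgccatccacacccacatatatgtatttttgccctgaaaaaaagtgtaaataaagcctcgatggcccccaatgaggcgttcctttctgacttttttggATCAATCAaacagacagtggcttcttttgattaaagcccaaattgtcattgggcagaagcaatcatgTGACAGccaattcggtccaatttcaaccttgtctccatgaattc
Hoxd4: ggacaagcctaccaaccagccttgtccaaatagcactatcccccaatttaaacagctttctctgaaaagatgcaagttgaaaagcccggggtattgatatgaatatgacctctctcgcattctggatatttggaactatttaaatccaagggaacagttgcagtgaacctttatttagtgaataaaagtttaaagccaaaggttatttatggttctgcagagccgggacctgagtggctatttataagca
Hoxa9: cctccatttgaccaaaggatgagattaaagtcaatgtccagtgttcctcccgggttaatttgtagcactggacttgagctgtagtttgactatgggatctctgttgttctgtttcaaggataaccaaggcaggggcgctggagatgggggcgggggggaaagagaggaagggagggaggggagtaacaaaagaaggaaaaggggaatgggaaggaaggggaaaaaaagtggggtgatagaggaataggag
Hoxa11: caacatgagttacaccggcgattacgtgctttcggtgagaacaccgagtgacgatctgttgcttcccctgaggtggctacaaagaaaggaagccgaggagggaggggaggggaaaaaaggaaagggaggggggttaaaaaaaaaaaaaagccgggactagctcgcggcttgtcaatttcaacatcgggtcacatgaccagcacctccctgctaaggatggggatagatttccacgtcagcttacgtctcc
Hoxa2 held 1 match to each motif and the other 3 sequences held 0 of either. TGATNNAT was found in 7.68% of 32851 mouse promoter windows of this length and in 4 of the 24 windows of 22 HOX genes, and TGACAG in 15.9% and 2. CANNTG, the E-box bound by myogenic factors such as MyoD, was in 66.2% of all windows and 17 of the 24. The 4 printed sequences held 1 E-box each. These matches describe letters only.

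Across the clusters, 12 genes were above background on every array, among them Hoxa3, Hoxa4, Hoxa5, Hoxa7, Hoxa9, Hoxb3, Hoxb6, Hoxc4, Hoxc6, Hoxc9 and Hoxc13. Hoxa11 and Hoxc10 were above background on every KO and C2C12 array and on 0 WT arrays. Hoxb2, Hoxb9 and Hoxd4 showed the opposite, above background on every WT array and on 0 KO or C2C12 arrays. The 11 genes above background on no array were Hoxb1, Hoxb8, Hoxb13, Hoxc8, Hoxd1, Hoxd3, Hoxd8, Hoxd10, Hoxd11, Hoxd12 and Hoxd13. The remaining 10 were above background on some arrays: Hoxa2, Hoxa6, Hoxa10, Hoxa13, Hoxb4, Hoxb5, Hoxb7, Hoxc5, Hoxc12 and Hoxd9.

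**Figure D1:**
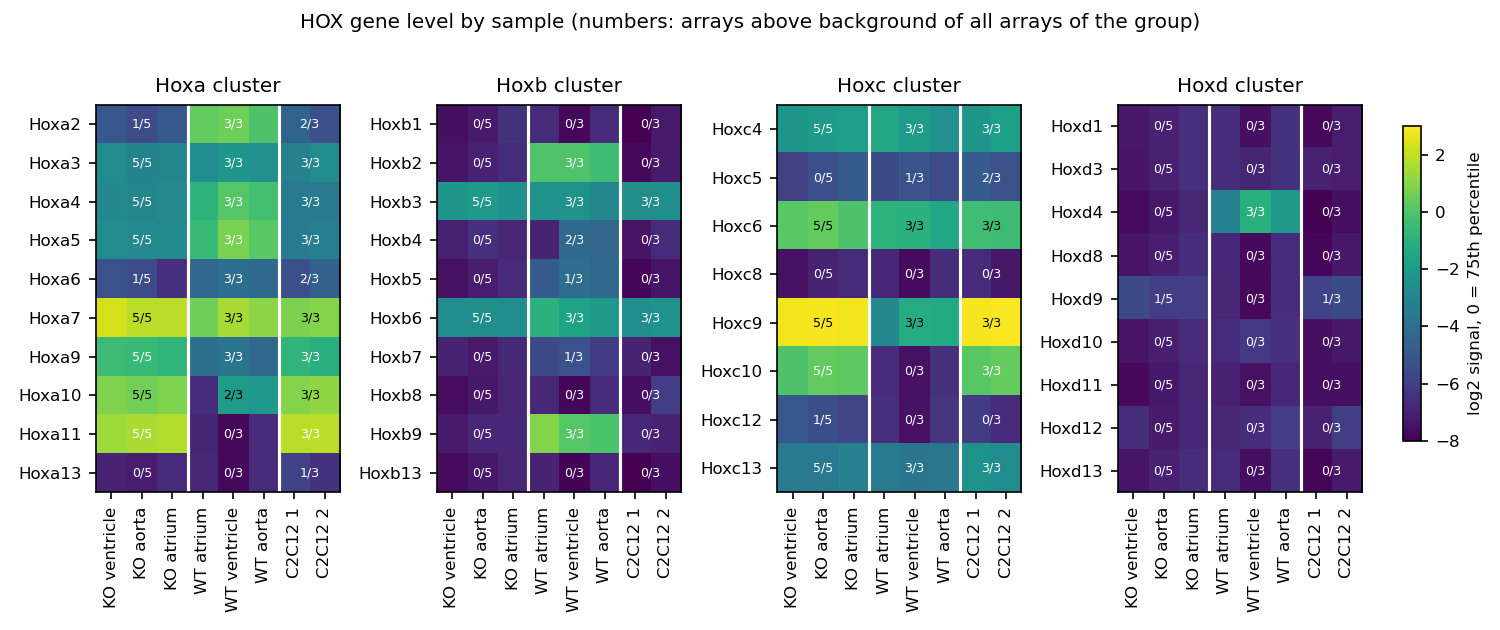
Level of the HOX genes reported (brightest probe of each, rows in paralogue order) in each of the 8 samples (columns), as log2 signal with 0 at the 75th percentile of the array. Numbers give the arrays above background in a group. Hoxa11 and Hoxc9 are higher in KO and C2C12 than in WT, Hoxb2, Hoxb9 and Hoxd4 are above background on 3 WT arrays and on 0 others, and the rest of the Hoxd cluster is dark.

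The number of HOX genes above background was 19, 15 and 15 in KO ventricle, aorta and atrium, 22, 19 and 17 in WT ventricle, aorta and atrium, and 20 and 16 in C2C12. A gene counted if any of its probes was above background on any array of the sample. KO ventricle, KO aorta and the first C2C12 sample each joined 2 arrays and every other sample had 1, which favours higher counts in those joined. The totals overlapped between the groups, but the clusters were used unequally. Of the Hoxb genes, 2 were above background in each KO and each C2C12 sample, against 7, 5 and 4 in WT ventricle, aorta and atrium. Of paralogues 9 to 13, the tail-end genes, 8, 6 and 6 were above background in the same order of KO samples, 8 and 6 in C2C12, and 5, 5 and 4 in WT. With 3 samples a group an exact test cannot go below a p of 0.1, so these counts are given as a description.

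**Figure D2:**
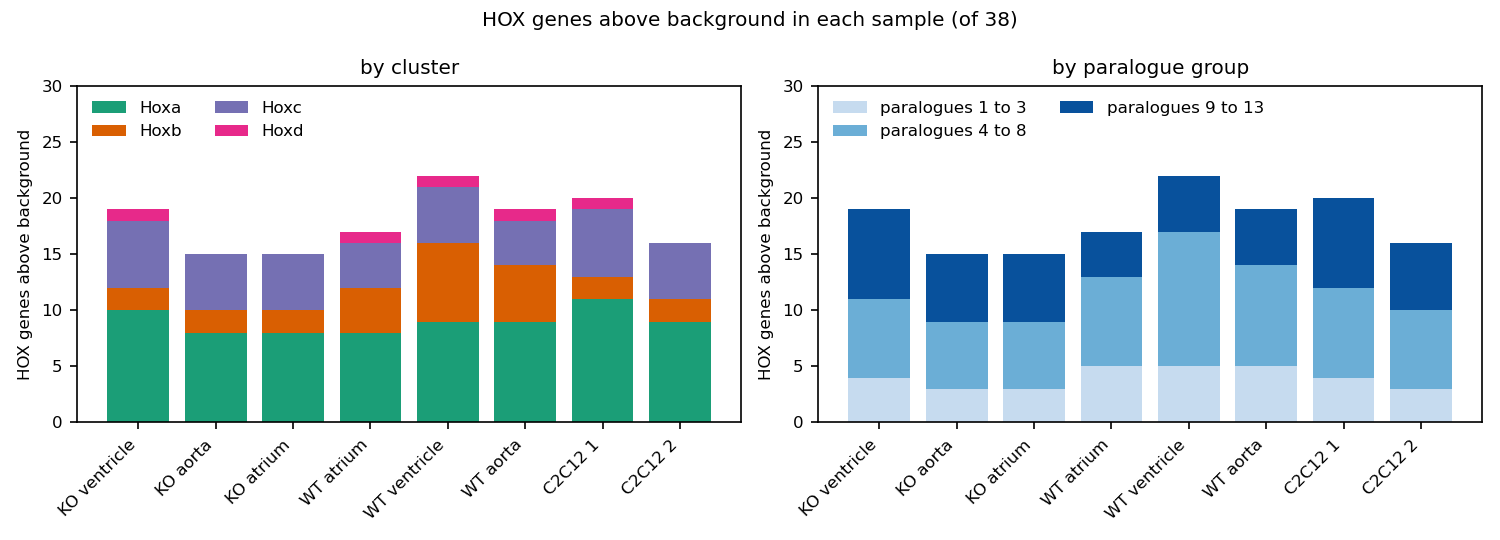
Number of HOX genes above background in each sample (vertical axis, of 38), stacked by cluster on the left and by paralogue group on the right. The Hoxb segment is 2 genes in every KO and C2C12 sample and 4 to 7 genes in WT.

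In the comparison of KO with WT, Hoxa9, Hoxa10, Hoxa11, Hoxc6, Hoxc9 and Hoxc10 were higher in KO. Hoxa2, Hoxa4, Hoxa5, Hoxa6, Hoxb2, Hoxb6, Hoxb9 and Hoxd4 were lower. Tail-end Hoxc13 and, by its brighter probe, head-end Hoxa3 were not called. Of the 38 genes, 20 were bright enough to be tested (above background on at least 3 of the heart arrays). Among them 6 were higher and 8 lower in KO (limma, Benjamini-Hochberg adjusted p under 0.05), 14 in all, where 29.8% of the 15002 genes tested were called, 13.8% higher and 16% lower. The median size of the difference was 2.71 for the HOX genes tested, also with genes undetected in 1 group at their bound, and 0.44 for all genes tested, and the median signed difference was -0.17 and -0.05. Of the 20, 5 passed the filter through 1 group only and so had to differ: Hoxa11, Hoxb2, Hoxb9, Hoxc10 and Hoxd4. The p-values given below for these genes add no support. The groups did not overlap for 16 of the 20, against 49.3% of all genes tested.

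Hoxa11, a gene of the forearm and uterus programmes, had the largest difference. Its level was 1.37, 1.62 and 1.74 in KO ventricle, aorta and atrium, -7.78, -6.66 and -6.85 in WT ventricle, aorta and atrium, and 1.82 and 1.84 in C2C12. Every WT value was that of a probe not well above background, far below every other sample. KO exceeded WT by 8.67 (SE 0.32, limma adjusted p = 3.05e-05). Since WT gives only a bound, the fold is stated as at least 89.2-fold. Such bounds set the bright group's mean against the lowest signal counted as above background on the dim group's arrays, or the probe's own signal where higher. All bounds hold for the main processing only. Under alternative processing the smallest log2 differences were 5.36 for Hoxa11, 3.71 for Hoxc10, -3.53 for Hoxb9 and -3.08 for Hoxb2, each below its bound. The probe lies at chr6:52171691-52171750 of build mm8, on the minus strand as does the cluster.

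Hoxc10, which marks lumbar and hindlimb levels, followed the same pattern. Its brighter probe (mm8 chr15:102799460-102799519) had levels of -0.08, 0.35 and 0.27 in KO ventricle, aorta and atrium, -7.49, -6.51 and -6.7 in WT ventricle, aorta and atrium, and 0.16 and 0.39 in C2C12. KO and C2C12 values interleaved, and WT was not well above background. The difference from WT was 7.08 (SE 0.29, limma adjusted p = 3.86e-05), at least 33.9-fold. The dimmer Hoxc10 probe was at least 4.94-fold higher in KO.

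Hoxc9, a thoracic gene, was measured in every sample and higher in KO. Levels of 2.76, 2.85 and 2.78 in KO ventricle, aorta and atrium and of 2.87 and 2.94 in C2C12 stood above -1.23, -1.28 and -2.89 in WT ventricle, aorta and atrium. WT signal was above background on every array, so this was a lower level and not an undetected one. KO exceeded WT by 4.6 (SE 0.46, limma adjusted p = 0.00101), 24.2-fold.

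Hoxa9, known for its part in blood stem cells and leukaemia, was also measured in every sample. Its levels were -0.44, -0.58 and -0.79 in KO ventricle, aorta and atrium, -3.75, -4.3 and -3.94 in WT ventricle, aorta and atrium, and -0.79 and -1.05 in C2C12. The groups KO and WT did not overlap, with a difference of 3.39 (SE 0.19, limma adjusted p = 0.000119), 10.5-fold.

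Hoxa10, which patterns the uterus and the lumbar spine, was high in KO but uneven in WT. Its levels were 0.89, 0.66 and 0.89 in KO ventricle, aorta and atrium, -1.93, -2.13 and -6.54 in WT ventricle, aorta and atrium, and 0.97 and 1.17 in C2C12. The WT atrium array was not well above background, while the other 2 WT arrays were. The difference of 4.35 (SE 1.23) had a limma adjusted p of 0.0431, which became 0.398 with slide as a block and at least 0.102 when any 1 KO sample was left out, and 0.0598 without WT aorta; without the WT atrium sample the difference was 2.84 (adjusted p = 0.000265).

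Hoxc6, a thoracic gene, showed the smallest called increase. Levels were 0.19, 0.39 and -0.06 in KO ventricle, aorta and atrium, -0.98, -1.39 and -0.9 in WT ventricle, aorta and atrium, and -0.38 and -0.48 in C2C12, which lay between them. KO was higher by 1.27 (SE 0.20, limma adjusted p = 0.00576), and the call was lost with slide as a block (1.16, adjusted p = 0.184).

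Among the genes lower in KO, Hoxb9, a thoracic gene at the tail side of its cluster, went against its paralogues Hoxa9 and Hoxc9. Its level was 0.11, -0.11 and 0.94 in WT ventricle, aorta and atrium, -7.22, -6.76 and -6.77 in KO ventricle, aorta and atrium, and -6.76 and -6.96 in C2C12. KO and C2C12 were not well above background on any array. KO was lower by a difference of -7.23 (SE 0.31, limma adjusted p = 4.57e-05), at least 38.6-fold, and by the second Hoxb9 probe at least 44.3-fold.

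Hoxb2, a hindbrain gene induced by retinoic acid, was likewise seen in WT alone. Its level was -0.05, -0.42 and -0.04 in WT ventricle, aorta and atrium, against -7.38, -6.99 and -6.58 in KO ventricle, aorta and atrium and -7.77 and -7.22 in C2C12. The difference was -6.82 (SE 0.24, limma adjusted p = 2.83e-05), at least 27.7-fold lower in KO. A second probe assigned to Hoxb2 lies on the strand opposite to the cluster (mm8 chr11:96166636-96166695), was above background on 1 WT array and was not tested.

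Hoxa2, which gives the second pharyngeal arch its identity, was the head-end Hoxa gene with the largest difference. WT ventricle, aorta and atrium had levels of 0.59, -0.09 and 0.35, KO ventricle, aorta and atrium -5.01, -5.5 and -4.99, and C2C12 -4.47 and -5.3. The probe was above background on 1 of 5 KO arrays and on 2 of 3 C2C12 arrays. The difference was -5.45 (SE 0.24, limma adjusted p = 4.79e-05).

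Hoxd4, a gene of the hindbrain and neck vertebrae, was the one Hoxd gene above background on every array of a group. Levels of -1.07, -2.04 and -3.11 in WT ventricle, aorta and atrium compared with -7.67, -7.28 and -6.8 in KO ventricle, aorta and atrium and -7.92 and -7.53 in C2C12. The WT samples, 1 array per region, varied, yet their lowest value stood clear of every KO value. The difference of -5.17 (SE 0.53, limma adjusted p = 0.00117) was at least 7.39-fold. The call was lost with slide as a block (-4.79, limma adjusted p = 0.0628). It was also lost with normexp background correction (-1.57, limma adjusted p = 0.0589), where the difference fell below that bound.

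Hoxa4 and Hoxa5, neighbours in the cluster and both active in developing lung and neck mesoderm, were measured in every sample. Hoxa4 had levels of 0.12, -0.3 and -0.87 in WT ventricle, aorta and atrium, -2.89, -3 and -2.81 in KO ventricle, aorta and atrium, and -3.42 and -3.55 in C2C12. It was lower in KO by a difference of -2.55 (SE 0.26, limma adjusted p = 0.00117), 5.86-fold, and its second probe gave -2.08. Hoxa5 had levels of 0.77, 0.19 and -0.56 in WT ventricle, aorta and atrium, -2.69, -2.81 and -2.73 in KO ventricle, aorta and atrium, and -3.45 and -3.25 in C2C12. For both genes the WT atrium was the lowest WT sample and still above every KO sample. The Hoxa5 difference of -2.88 (SE 0.33, limma adjusted p = 0.00182) became -2.68 with slide as a block, with an adjusted p of 0.0859.

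Hoxa6 and Hoxb6, thoracic paralogues, were called with smaller differences. Hoxa6 was dim throughout, at -4.03, -4.2 and -4.29 in WT ventricle, aorta and atrium and -5.27, -5.44 and -6.5 in KO ventricle, aorta and atrium, above background on 1 of 5 KO arrays; C2C12 had -5.33 and -4.62. Its difference was -1.56 (SE 0.34, limma adjusted p = 0.0184), and normexp background correction turned it to 0.01. The adjusted p was 0.0619 without WT ventricle, 0.0595 without WT aorta and 0.587 with slide as a block. Hoxb6 had levels of -1.65, -2.05 and -0.92 in WT ventricle, aorta and atrium, -2.67, -2.53 and -2.66 in KO ventricle, aorta and atrium, and -2.61 and -2.33 in C2C12. Its difference was -1.08 (SE 0.29, limma adjusted p = 0.0374), which kept its call in 9 of 18 alternatives. Leaving out any 1 KO sample or WT ventricle gave adjusted p from 0.0838 to 0.112.

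**Figure D3:**
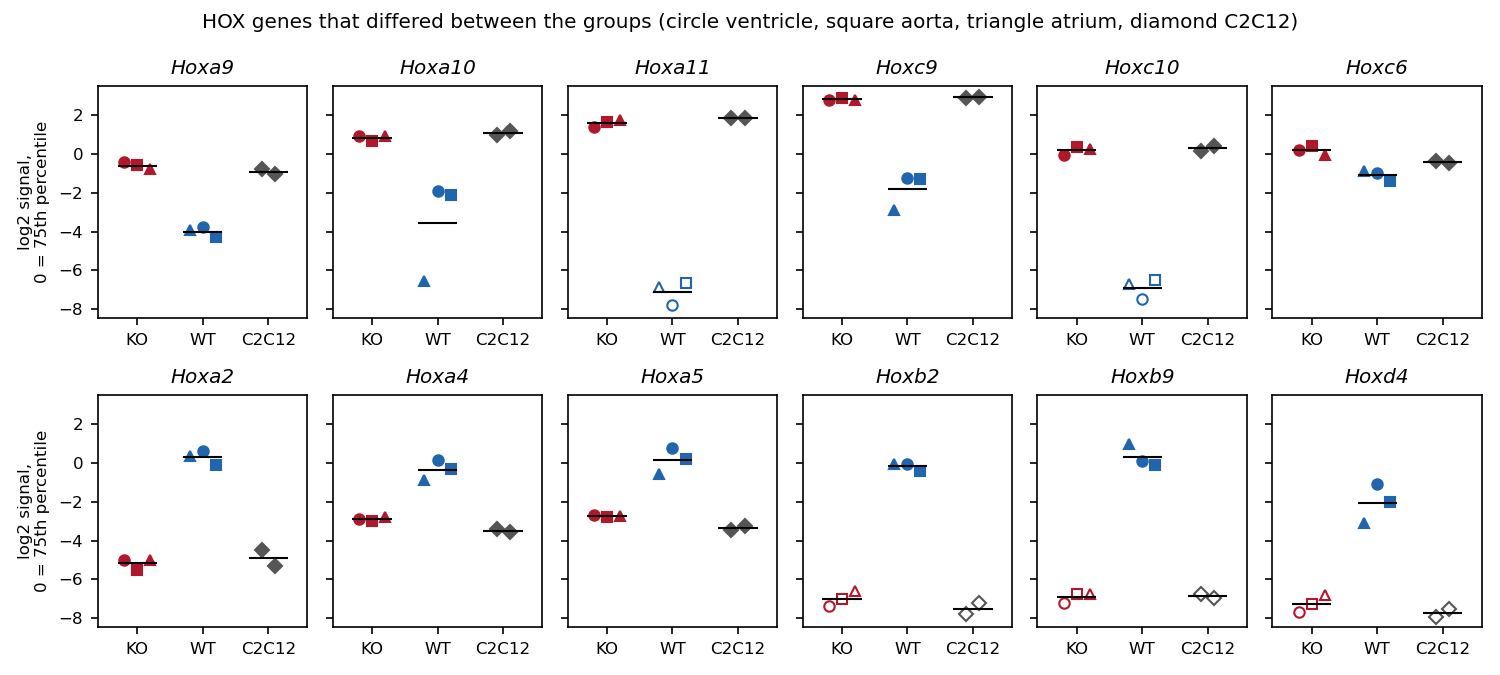
Level of 12 HOX genes in each sample (log2 signal, 0 at the 75th percentile; points are samples, lines are group means, open symbols mark groups in which 0 arrays were above background). WT points lie below those of KO and C2C12 in the upper row and above them in the lower row; for Hoxc6 the C2C12 points lie between KO and WT.

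The other 6 genes tested did not pass the test. Hoxa7, a thoracic gene, had levels of 2.29, 1.83 and 1.86 in KO ventricle, aorta and atrium, 1.56, 1.1 and 0.56 in WT ventricle, aorta and atrium, and 0.85 and 0.96 in C2C12. The KO minus WT difference was 0.92 (limma adjusted p = 0.0572), and 1.17 without WT ventricle (limma adjusted p = 0.0348). It was also called with median scaling, every array as its own sample, region as a block or all 8 samples fitted (limma adjusted p 0.0128 to 0.0376). With slide as a block it was not (1.03, limma adjusted p = 0.418). Hoxa3, which shapes the throat and thymus, had levels of -2.71, -3.06 and -2.98 in KO ventricle, aorta and atrium, -2.25, -2.43 and -2.67 in WT ventricle, aorta and atrium, and -3.2 and -2.68 in C2C12 (difference -0.47, limma adjusted p = 0.0952; -0.58 and 0.0362 without WT atrium). The 95% intervals of the difference were -0.23 to 0.82 for Hoxb3, -0.77 to 0.57 for Hoxc4 and -0.15 to 0.62 for Hoxc13. For the probes tested, and without slide in the fit, those intervals leave out a 2-fold difference, which is 1 on this scale, in either direction. With slide as a block the differences were 0.31 (SE 0.43) for Hoxb3, 0.29 (SE 0.55) for Hoxc4 and -0.1 (SE 0.32) for Hoxc13. A 2-fold difference was then no longer left out for Hoxb3 and Hoxc4. A second Hoxb3 probe, not tested, was above background on WT arrays only.

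Hoxb3, at its brighter probe, stayed between -2.95 and -2.11, and Hoxc4 between -2.44 and -1.44, over all 8 samples. Hoxc13, known for its role in hair, had -3.5, -3.47 and -3.22 in KO ventricle, aorta and atrium, -3.75, -3.7 and -3.43 in WT ventricle, aorta and atrium, and -2.37 and -2.7 in C2C12.

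Several genes outside the test had signal on a few arrays. Hoxb4, a gene of blood stem cells and neck vertebrae, was at -4.22 and -4.36 in WT ventricle and aorta, above background on 2 WT arrays, and at -6.96 in WT atrium; KO ran from -7.02 to -6.47. Hoxb5 and Hoxb7 were each above background on 1 WT array and on 0 KO or C2C12 arrays. Hoxc12 was above background on 1 KO array, Hoxd9 on 1 KO and 1 C2C12 array, and Hoxa13 on 1 C2C12 array. Hoxc5 was above background on 1 WT and 2 C2C12 arrays.

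Where a gene had 2 probes, the sizes of their differences could be far apart. For Hoxa3 the brighter probe differed by -0.47 between KO and WT and the dimmer one by -4.33, with dimmer-probe levels of -1.19, -1.33 and -1.72 in WT ventricle, aorta and atrium and -5.39, -6.06 and -5.76 in KO ventricle, aorta and atrium. Both probes of Hoxb6 were lower in KO, the brighter by a difference of -1.08 and the dimmer, above background on 0 KO arrays, at least 20.3-fold. For Hoxb3 the brighter probe gave 0.29 and was not called, and the dimmer one was above background on 2 WT arrays and 0 KO arrays (at least 2.1-fold) and was not tested. The call for Hoxa3 depends on the probe, while both probes of Hoxa4, Hoxb6, Hoxb9 and Hoxc10 were called in the same direction with every probe tested.

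**Figure D4:**
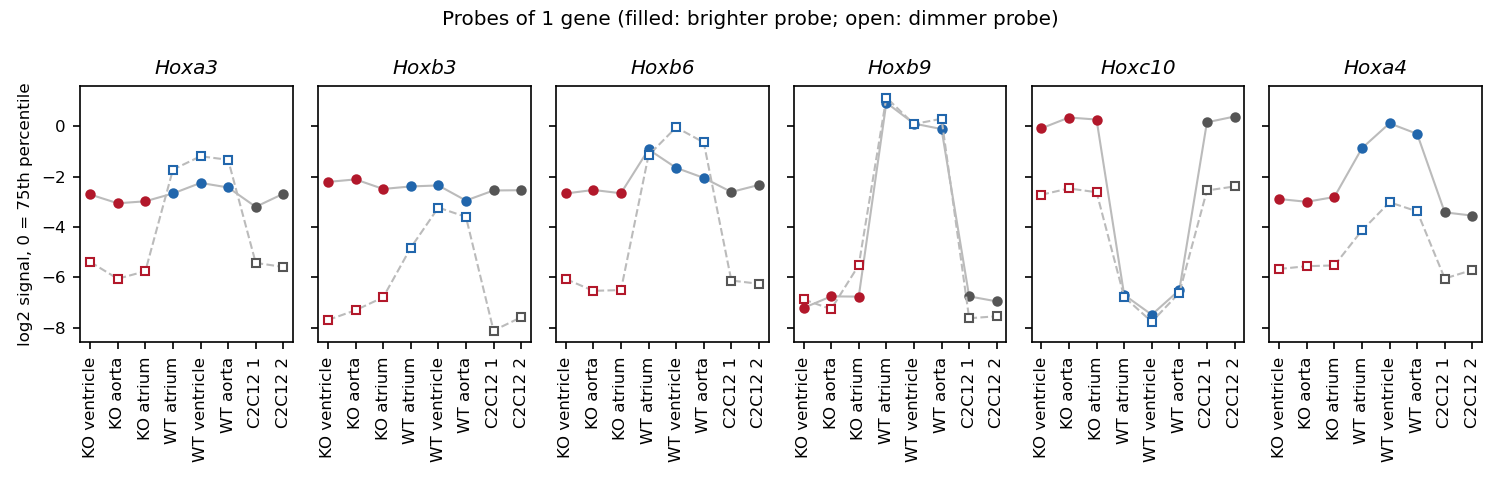
Levels of the 2 probes of 6 HOX genes in the 8 samples (log2 signal, 0 at the 75th percentile; filled circles brighter probe, open squares dimmer probe; lines only join the points of a probe). For Hoxb9, Hoxc10 and Hoxa4 the 2 probes differ in the same direction between KO and WT. Those of Hoxc10 lie apart in KO and C2C12 and are both not well above background in WT. The dimmer probes of Hoxa3, Hoxb3 and Hoxb6 are higher in WT, where the brighter ones differ by -0.47, 0.29 and -1.08 (KO minus WT).

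Set against C2C12, no HOX gene passed the test in the KO progenitors. Of 21 tested 0 were called by limma, where 1.26% of the 15807 genes tested were. The unadjusted limma p was under 0.05 for 4 HOX genes and for 1976 genes in all. Hoxb2, Hoxb9 and Hoxd4 were above background in neither group, so their values compare background with background. The differences included -0.86 for Hoxc13 (SE 0.18, limma adjusted p = 0.0915), 1.09 for Hoxa7 (SE 0.3, limma adjusted p = 0.186) and 0.60 for Hoxc6 (SE 0.21, limma adjusted p = 0.292). The median size was 0.32 for the HOX genes and 0.22 for all genes. A difference that was not called does not show equal levels: the 95% interval was -1.03 to 0.52 for Hoxa11, -0.81 to 0.62 for Hoxc10 and -3.26 to 2.74 for Hoxa10. Taking every array as its own sample called 4 HOX genes, among them Hoxa7, Hoxc6 and Hoxc13, and 1629 genes in all.

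WT against C2C12 gave 7 higher and 6 lower of the 21 tested, where 27% of all genes tested were called (13.7% higher, 13.3% lower). Of the 21, 5 passed the filter through 1 group only and so had to differ: Hoxa11, Hoxb2, Hoxb9, Hoxc10 and Hoxd4. Hoxa2, Hoxa4, Hoxa5, Hoxb2, Hoxb9 and Hoxd4 were among those higher in WT, and Hoxa9, Hoxa10, Hoxa11, Hoxc9, Hoxc10 and Hoxc13 were lower. As bounds, WT was at least 106-fold lower for Hoxa11 and 36.2-fold lower for Hoxc10, and at least 57.5-fold higher for Hoxb9, 41.2-fold for Hoxb2 and 11-fold for Hoxd4. Hoxc13, at -1.09 (limma adjusted p = 0.00483), was called here and not between KO and WT. Its call was lost with normexp background correction (-0.81, limma adjusted p = 0.113). So was that of Hoxd4 (1.63, limma adjusted p = 0.0797), where the difference fell below its bound. Hoxa10 (-4.61, limma adjusted p = 0.0355) lost its call with no filter on background (limma adjusted p = 0.0526). Its difference was -4.71 and -4.51 without the first and the second C2C12 sample. By its brighter probe Hoxb6 was called without WT atrium (0.62) or WT aorta (1.19), and Hoxc6 was called without WT atrium (-0.76). By their dimmer probes, Hoxb6 and Hoxa3 were higher in WT by 5.58 and 4.1 (limma adjusted p over all probes 4.01e-05 and 4.48e-05). Each of those probes was above background on 1 of 3 C2C12 arrays. Both comparisons with C2C12 use the same C2C12 samples, and each shares its heart samples with KO against WT.

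**Figure D5:**
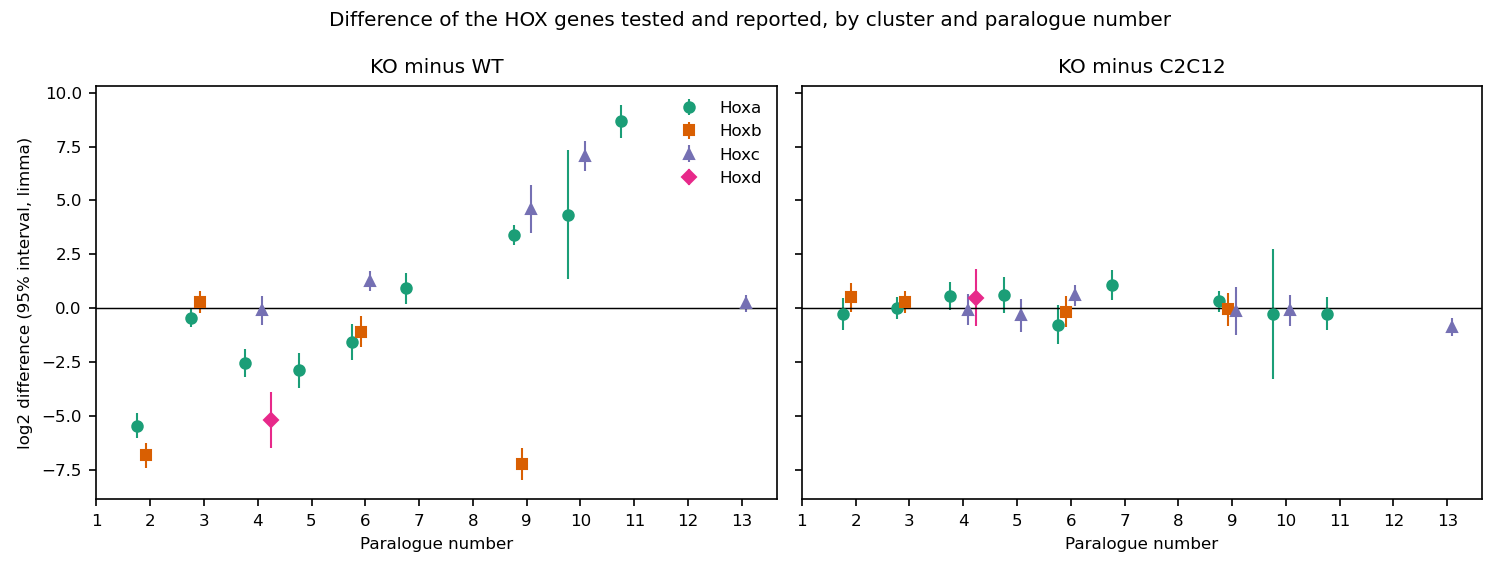
Difference in log2 level of the HOX genes tested and reported (points, with 95% limma intervals) against its paralogue number, for KO minus WT on the left and KO minus C2C12 on the right, coloured by cluster. On the left Hoxa and Hoxc paralogues 9 to 11 lie above 0, and Hoxa2, Hoxb2, Hoxb9 and Hoxd4 lie lowest; on the right the points stay between -0.86 and 1.09.

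Within a slide, where KO or WT arrays can be set against the C2C12 array on the same slide, Hoxa11 differed from the C2C12 array of its own slide by -0.47 to -0.07 in KO and was not well above background in WT. Hoxc9 differed by -0.15 to 0.02 in KO and -5.83 to -4.18 in WT. Hoxa5 differed by 0.61 to 0.79 in KO and 2.7 to 4.02 in WT. For Hoxa7 WT lay nearer to C2C12 than KO did, with differences of 0.96 to 1.52 in KO and -0.4 to 0.6 in WT. With slide as a block in the fit over 8 samples, 8 HOX genes were called between KO and WT in place of 14: Hoxa2, Hoxa4, Hoxa9, Hoxa11, Hoxb2, Hoxb9, Hoxc9 and Hoxc10.

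No HOX gene was called between heart regions. Neither aorta against ventricle nor atrium against ventricle called any of the 20 HOX genes tested, and the background was 0% in both; unadjusted p was under 0.05 for 2 and 1 HOX genes and for 440 and 1146 genes in all. Region and array position on the slide cannot be told apart. The median range over the 3 regions was 0.38 in KO (0.34 for all genes) and 0.98 in WT (0.54 for all genes). In WT 7 of the 20 HOX genes spanned more than 2-fold, against 22.9% of all genes, and in KO 1, against 11.1%. Of those 7, Hoxa11 was above background on 0 WT arrays, so its range of 1.12 is one of background signal.

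The WT atrium array stood apart from the other WT arrays over all 10226 bright probes, with an SD of the log2 difference of 0.719 from ventricle and 0.686 from aorta, against 0.241 between those arrays. It gave the widest WT range, the 4.62 of Hoxa10, where it was not well above background. It was also the lowest WT sample for, among others, Hoxc9, Hoxd4, Hoxa4, Hoxa5, Hoxa7 and Hoxb4, and the highest for, among others, Hoxb6 and Hoxb9. The difference of the atrium from the other regions, WT minus KO, was estimated with a model chosen after these values were seen. That model gives each heart sample its own mean, so its only spread is that between the C2C12 samples. It cannot test a difference among heart samples, and only effect sizes are given. Of 21 HOX genes, Hoxa10 had the largest value, -4.63, followed by Hoxd4 at -2.23 and Hoxc9 at -1.61.

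Genes that act on the HOX clusters or with their products were read in the same KO to WT fit, in which 29.8% of all genes were called (13.8% higher, 16% lower). Of 9 TALE cofactors, the homeodomain partners of HOX proteins, 1 was higher and 1 lower: Pknox1 by 0.81 (limma adjusted p = 0.0114) and Pbx4 by -0.89 (limma adjusted p = 0.0264). Meis1, at -0.79, was not called. Of 21 Polycomb genes tested, 4 were higher and 0 lower: Cbx7, a reader of the silencing mark, by 1.82, Jarid2, which recruits the methylating complex, by 1.48, Phc2 by 1.13 and Rbbp4 by 0.74. Ezh2, the methylating enzyme, at -0.34, and Bmi1, at 0.06, were not called. Of 12 trithorax and demethylase genes, Kmt2b was lower by a difference of -0.67 and Kmt2a, at -0.3, was not called. The shares called were below that of all genes for these 3 lists. The list medians were -0.04, 0.06 and -0.18 against -0.05 for all genes.

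Of 13 retinoic acid genes tested, 4 were higher and 3 lower, against 13.8% and 16% of all genes, and 6 did not pass (median 0.16). The 4 higher genes and Cyp26b1 passed the filter through 1 group only, so a difference was built in and their p-values add no support. Crabp1 also passed through KO only and was not called. Dhrs3, which reduces retinal to retinol, rose (limma adjusted p = 0.000781) from WT levels not well above background to between 0.47 and 3.79 in KO, at least 127-fold. Also undetected in WT, Aldh1a3, which makes retinoic acid, rose at least 24.8-fold, Crabp2, which carries it to the nucleus, at least 20.7-fold, and the receptor gene Rarb at least 13.2-fold. Cyp26b1, which degrades retinoic acid, was above background on 0 KO arrays and at least 29.3-fold lower there (limma adjusted p = 2.81e-05). Aldh1a1 was lower by a difference of -2.92, above background on 1 of 5 KO arrays.

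Of 5 upstream patterning genes tested, Zic1, undetected in WT, rose at least 49.3-fold and Egr2, a hindbrain regulator of Hoxb2, by 2.33, while Gdf11, a signal for tail-end HOX genes, had a difference of -1.58. Among 10 genes next to the clusters, 1 was higher (Smug1, beside Hoxc, 0.64) and 2 lower (Skap1, beside Hoxb and undetected in KO, at least 2.25-fold, and Mtx2, beside Hoxd, -0.82), a share near the 29.8% of all genes. Of 9 other homeobox genes tested, 4 were higher, among them Lhx2 (at least 36.8-fold) and En1 (at least 2.12-fold), both undetected in WT, and 1 was lower, Prrx1 at -1.6, against 29.8% of all genes called. Zic1, Skap1, Lhx2 and En1 passed the filter through 1 group only, so a difference was built in for them. Against C2C12, where 1.26% of all genes were called, the KO samples had 0 calls in the TALE, Polycomb, trithorax, patterning and other homeobox lists and 1 lower gene each among the retinoic acid genes and the neighbours. These were Cyp26b1, at least 1.35-fold (limma adjusted p = 0.0151), and Skap1, at least 1.73-fold (limma adjusted p = 0.029), both undetected in KO.

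Cell type markers were read between KO and WT beside the 29.8% of all genes called. Skeletal muscle markers gave 8 higher and 0 lower of 9 tested, cardiomyocyte markers 3 and 2 of 7, mesoangioblast and pericyte markers 4 and 0 of 5, smooth muscle 2 and 0 of 5, and fibroblast 3 and 3 of 6. Blood markers gave 0 and 1 of 4, epicardial markers 1 and 1 of 4 (summed signal 2.81 to 7.3 in KO and 10.3 to 99.6 in WT) and neural crest markers 0 and 1 of 2. Some of the markers, among them Myog, Cdh15 and Nkx2-5, passed the filter through KO only, so a difference was built in for them. The part of the markers in the HOX result was not tested.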

How the data were processed

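Gene expression was measured on 11 1-colour Agilent arrays of 45018 spots. Spot intensity, background-subtracted and detrended, was deposited as the output of Feature Extraction 9.5.3.1 (Agilent), a version taken from the submitters' processing notes. Probe positions are on build mm8, per the file headers. The authors also deposited a series-wide table of log2 values, equal to the log2 signal within 0.01 for 99.7 to 99.8% of probes; it served as an alternative. No count or depth exists for arrays, and their number limits the precision.

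Here control and marked spots were left out, spots of a probe averaged, and log2 signal reduced by the array's 75th percentile. Of 41174 probes 41121 were kept, and names were updated through RefSeq (24348 by accession, 6293 by symbol, 2419 by synonym, 8061 kept as in the file). Array pairs of a group whose log2 difference had a smaller SD than repeated spots were averaged: 3 of 16 pairs, at 0.586 to 0.7 of that noise, the others at 2.792 or more. Tested probes were those flagged as well above background on 3 or more arrays of the fit, with the brightest such probe per gene. limma 3.58.1 in R 4.3.3 (lmFit, eBayes) compared KO and WT over 6 heart samples, both with C2C12 over 8, and regions with genotype in the model; Benjamini-Hochberg adjusted p under 0.05 was called. On simulated data for KO against WT, 200 of 15002 genes were changed. The fit recovered 76% of log2 changes of 2 and 96% of log2 changes of 4, with 7 false calls. The simulated noise was independent between samples and held no slide effect, and fewer genes were changed than the 4464 called in the data. Those rates therefore do not describe the KO to WT calls.

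The HOX members, gene lists and naming rule were chosen with earlier results of these data known. HOX genes called, or above background on every array of a group, were named; of other lists, up to 3 called genes each way and the best known members. Some genes are not reported here.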

Additional observations from a re-analysis of the deposited data

How the results depend on the processing

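Of the 14 HOX calls between KO and WT, 8 held under every one of 18 alternatives (Hoxa2, Hoxa4, Hoxa9, Hoxa11, Hoxb2, Hoxb9, Hoxc9 and Hoxc10), as did 10 of 13 between WT and C2C12 under 15. Of the 8, Hoxa11, Hoxb2, Hoxb9 and Hoxc10 had passed the filter through 1 group only. The alternatives overlap. The deposited values nearly repeat the main ones, and for WT against C2C12 slide as a block gave the same counts as leaving out the first C2C12 sample. Slide as a block lowered the KO to WT count to 8, and the count over all genes from 4464 to 897; leaving out 1 sample at a time gave 12 to 15. Normexp background correction called 6 higher and 5 lower HOX genes and turned Hoxa6 to 0.01; the cause was not tested. Scaling to the median moved the median difference of all genes from -0.05 to 0.05 and split the HOX calls into 7 higher and 7 lower. For KO against C2C12 the count of 0 became 1 with median scaling, where 219 of all genes were called. It became 4 with every array as its own sample, near-identical arrays included, where 1629 of all genes were called. Leaving out 1 KO sample gave 0 throughout. Between WT and C2C12, leaving out 1 sample gave 12 to 15 HOX calls. Atrium against ventricle called 0 to 1 HOX genes when 1 sample was left out, the 1 being Hoxa10 (-4.62) without KO atrium. Region as a block, which pairs 1 KO with 1 WT sample, called 13; the labels carry no replicate numbers.

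The count of HOX genes above background depended on its definition. Requiring every array of a sample gave 15 for KO ventricle and 17 for the first C2C12 sample. Requiring 2 times the lowest signal above background gave 15 for KO ventricle, 15 for WT aorta and 17 for the first C2C12 sample. After normexp, with the lowest signal of any probe above background as the limit, the counts were 34, 38 and 18 for KO ventricle, aorta and atrium, 25 and 22 for WT ventricle and atrium, and 38 and 26 for C2C12, so that all 38 genes counted in some samples. An alternative limit, the 5th percentile of those signals, was chosen after seeing the data, because of these high counts; it gave 17, 15 and 16 for KO ventricle, aorta and atrium, 21, 17 and 16 for WT ventricle, aorta and atrium, and 19 and 16 for C2C12. Signals near background carry no order, which limits the Hoxd cluster most.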

Other observations

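Transcripts antisense to the HOX clusters, chosen after their values were seen, were also present on the array. Hoxd3os1, an antisense RNA of the Hoxd cluster, had levels of -2.85, -3.42 and -3.14 in WT ventricle, aorta and atrium at 1 probe (mm8 chr2:74510948-74511007, minus strand) and was not well above background on any KO or C2C12 array. Its KO minus WT difference was -4.02 (SE 0.26, limma adjusted p over all probes = 0.000181), at least 3.54-fold, while a second probe was above background on 0 arrays. The first probe passed the filter through WT only, so a difference was built in. Hoxaas2, an antisense RNA of the Hoxa cluster, had levels of -0.9, -2.36 and -2.08 in WT ventricle, aorta and atrium and -4.85, -7.08 and -6.04 in KO ventricle, aorta and atrium. Its difference was -4.21 (SE 0.64, limma adjusted p over all probes = 0.00501), with 2 of 5 KO arrays above background.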
